A study of Saccharomyces cerevisiae with 40 samples.

Results

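The gluconeogenesis and glyoxylate genes examined here were PCK1, FBP1, ICL1, MLS1, MDH2, ACS1 and SFC1, together with the transcriptional activators CAT8, SIP4 and ADR1. They were taken by name, as the probe sets whose only gene symbol in the platform annotation is that of the gene. Each of the 10 genes had 1 such probe set, of 9275 probe sets other than controls and 6504 with a single gene symbol, and all 10 passed the filter on dim signals. The arrays came from Saccharomyces cerevisiae HFY1400, in which NMD2 is disrupted by HIS3 (nmd2::HIS3). In the GAL-NMD2 strain a plasmid carried NMD2 under the galactose-inducible GAL1 promoter, and in the nmd2D strain the cells held an empty URA3 vector, so the disruption was common to both. Both strains have arrays at 0, 10, 20, 40 and 60 min, with 4 biological replicates at each time, in all 40 arrays in 10 groups. On the medium the labels disagree: one text has raffinose with galactose given at 0 min, and the other has galactose alone. Galactose is both the inducer of NMD2 and a carbon source. The labels do not say whether a strain was 1 transformant, nor whether a replicate number follows 1 culture through the course.

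Gluconeogenesis makes hexose phosphates from smaller carbon compounds. PCK1 encodes phosphoenolpyruvate carboxykinase, which turns oxaloacetate into phosphoenolpyruvate, and FBP1 encodes fructose bisphosphatase, the late irreversible step. The glyoxylate cycle (ICL1, MLS1, MDH2) builds dicarboxylic acids from acetyl-CoA supplied by ACS1, and SFC1 exchanges succinate and fumarate across the inner mitochondrial membrane. In yeast these genes are repressed by glucose and need the Snf1 kinase, which acts through the zinc cluster activators Cat8 and Sip4 and through Adr1. Nonsense-mediated decay (NMD) degrades mRNAs whose translation stops early, and Nmd2 is a core factor of it.

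Values are MAS5 signal intensities, scaled by the authors to a common trimmed mean on each array. Differences are on the log2(signal + 16) scale, which understates changes of dim probe sets, and were tested with limma over 7420 probe sets with Benjamini-Hochberg adjustment. A gene was called at an adjusted p under 0.05. Means are given ± SD with n = 4. Median signal per array lay between 61.2 and 86, and arrays of a group correlated with r between 0.960 and 0.989. At 60 min the array medians averaged 65.6 ± 3.74 in GAL-NMD2, whereas nmd2D had 81.7 ± 3.18. Why they differed was not tested. Calls of the set that changed when each array was centred on its median are given below. At 60 min the signal of NMD2 was 1654 ± 212 in GAL-NMD2, against 889 ± 132 in nmd2D, and where its probes lie relative to the disruption was not examined. Scaling to a common mean leaves the total mRNA of a cell unmeasured. GAL1 was high at 60 min in both strains. This galactokinase gene averaged 3662 ± 1106 at 60 min and 108 ± 48.5 at 0 min in GAL-NMD2, and 3155 ± 658 at 60 min and 85.9 ± 14.2 at 0 min in nmd2D.

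PCK1 lost most of its signal in GAL-NMD2 cells within the hour, while in nmd2D cells it moved little. At 60 min its signal was 108.6, 146.7, 84.3 and 149.9 in replicates 1 to 4 of GAL-NMD2, against 230.8, 404.4, 296.4 and 324 in nmd2D. The strains did not overlap, and every GAL-NMD2 value lay below the lowest nmd2D value. At 40 min the signal was 264.4, 243.6, 159.9 and 227.4 in GAL-NMD2 and 274.1, 336.7, 358.7 and 348 in nmd2D. The strains were then just apart, by the first replicate of each. At 0 min the signal was 315.8, 416.5, 317.2 and 434.2 in GAL-NMD2, against 361.9, 339.1, 338.2 and 349.5 in nmd2D, so the strains overlapped before galactose.

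The course of PCK1 in GAL-NMD2 was 371 ± 63.3, 396 ± 98.2, 363 ± 100, 224 ± 45.2 and 122 ± 31.6 at 0, 10, 20, 40 and 60 min. In nmd2D it was 347 ± 11.1, 363 ± 46.4, 377 ± 63.7, 329 ± 37.9 and 314 ± 71.9. The lowest group was GAL-NMD2 at 60 min and the next GAL-NMD2 at 40 min, and these groups did not overlap (highest 149.9 and lowest 159.9). GAL-NMD2 at 40 min overlapped nmd2D at 60 min. The other 8 group means lay between 314 and 396, and each of these groups overlapped its neighbours in the order.

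Within GAL-NMD2, PCK1 fell at 60 min, with a log2 change of -1.50 (SE 0.20, limma adjusted p = 1.08e-06) and replicates between -1.73 and -1.41. In nmd2D the change at 60 min was -0.16 (SE 0.20, limma adjusted p = 1.00), with replicates between -0.61 and 0.24. The difference between these responses, the interaction, was -1.33 (SE 0.28, limma adjusted p = 0.00325), lower in 4 of 4 replicate numbers. PCK1 was the only one of the 10 genes with a called interaction at 60 min, where 3.89% of all probe sets were called lower. The direct strain difference at 60 min was -1.26 (SE 0.20, limma adjusted p = 1.47e-05), a ratio of 0.418, where 11.9% of all probe sets were called lower. The call within GAL-NMD2, the interaction and the strain difference of PCK1 at 60 min were each kept in all 18 alternative settings, including the centring of each array on its median, which gave an interaction of -1.16. With that centring the median over all probe sets was 0.16 for the interaction, against -0.01 without it, and 0.21 for the strain difference, against -0.05. It also split the called strain differences into 466 lower and 437 higher, against 885 and 32 without it, and the called changes within GAL-NMD2 into 495 lower and 328 higher, against 765 and 88.

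**Figure D1:**
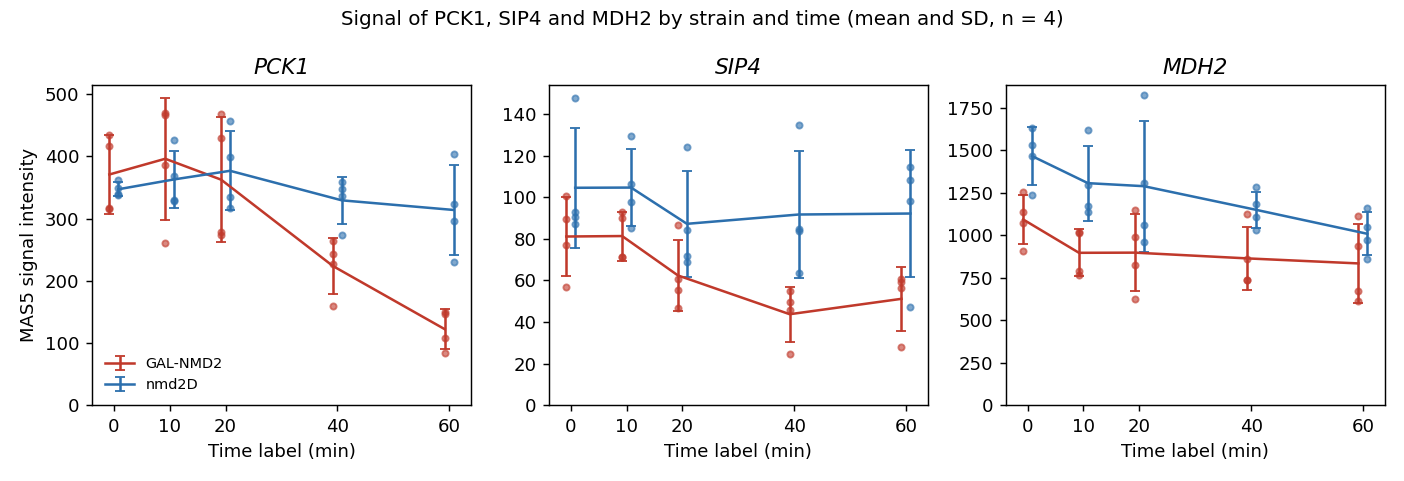
MAS5 signal of PCK1, SIP4 and MDH2 (y axis) by time label in min (x axis) in GAL-NMD2 (red) and nmd2D (blue), with points for single arrays, lines through the means and bars for the SD over 4 replicates. The means of PCK1 draw apart after 20 min, to 122 in GAL-NMD2 against 314 in nmd2D at 60 min. The mean of SIP4 is lowest in GAL-NMD2 at 40 min (43.8), and that of MDH2 is lower in GAL-NMD2 at all 5 times.

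The fall of PCK1 was already called at 40 min within GAL-NMD2 (log2 -0.70, SE 0.20, limma adjusted p = 0.0190), alongside that of SIP4, where 8.19% of all probe sets were called lower. PCK1 kept this call in 12 of 18 other settings. In the other 6, which were median centring, quantile normalization, fitting only the arrays compared, and leaving out GAL-NMD2 replicate 2, 3 or 4, 0 genes of the set were called. Between the strains PCK1 was not called at 40 min, for the strain difference or for the interaction. Its strain difference was called in 2 of 18 other settings and its interaction in 0 of 18. At 10 and 20 min limma called 0 of the 10 genes within GAL-NMD2 (0 at an unadjusted p under 0.05 at either time; with the replicate number as a block 0 were called and 1 had an unadjusted p under 0.05 at each time), with 0.0674% and 0.445% of all probe sets called.

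SIP4, which encodes a zinc cluster activator that binds carbon source response elements, was lower in GAL-NMD2 at 40 min. Its signal there was 24.6, 49.8, 54.9 and 45.7 in GAL-NMD2 and 63.4, 83.9, 134.8 and 84.6 in nmd2D, and the strains did not overlap. The strain difference was -0.84 (SE 0.23, limma adjusted p = 0.0161), lower in 4 of 4 replicate numbers, and SIP4 was the 1 gene of the set called, with 7.95% of all probe sets called lower. This call was lost in 5 of 18 other settings, namely median centring, quantile normalization, fitting only the arrays compared, leaving out GAL-NMD2 replicate 1 and leaving out nmd2D replicate 3, when 0 genes of the set were called. Within GAL-NMD2 SIP4 fell at 40 min, with a change of -0.71 (SE 0.23, limma adjusted p = 0.0487) and replicates between -0.84 and -0.50, and this call was kept in 7 of 18 other settings. With the replicate block MDH2 fell there too (-0.35, adjusted p = 0.0390), where 16.1% of all probe sets were called lower.

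At 60 min SIP4 read 28.1, 60.9, 59.2 and 56.4 in GAL-NMD2 and 47.4, 98.2, 114.5 and 108.5 in nmd2D. Only replicate 1 of nmd2D reached into the GAL-NMD2 range. The strain difference of -0.67 (SE 0.23, limma adjusted p = 0.0553) missed the threshold, and with the replicate block it was past it (adjusted p = 0.00631), with 20.1% of all probe sets then called lower. It was also called without nmd2D replicate 1. At 0 min SIP4 read 56.8, 77.1, 100.8 and 89.7 in GAL-NMD2 and 87, 90.6, 147.8 and 92.7 in nmd2D, again lower in GAL-NMD2 in 4 of 4 replicate numbers, with a difference of -0.31 (SE 0.23) that was not called. Its interaction was not called at 40 min (-0.53, SE 0.33) or 60 min (-0.36, SE 0.33, 95% interval -1.03 to 0.31). A response of SIP4 that differs between the strains was not shown.

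MDH2 encodes the cytosolic malate dehydrogenase that supplies oxaloacetate to PCK1. Its mean lay lower in GAL-NMD2 at every time, before galactose included. At 0 min its signal was 1257.1, 907.6, 1136.2 and 1074.6 in GAL-NMD2 and 1631, 1234.8, 1467.1 and 1534.2 in nmd2D. The ranges overlapped by the highest GAL-NMD2 and the lowest nmd2D replicate only. At 10 min it was 1015, 764.6, 790.7 and 1019.2 in GAL-NMD2 against 1623, 1172, 1137.1 and 1297.7 in nmd2D, with no overlap.

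The strain differences of MDH2 were -0.42, -0.53, -0.50, -0.42 and -0.30 at 0, 10, 20, 40 and 60 min (SE 0.19 each). They were lower in 4 of 4 replicate numbers at 0, 10 and 40 min and in 3 of 4 at 60 min. None was called by limma (lowest adjusted p = 0.216, at 40 min), and median centring brought the difference at 60 min to -0.04. With the replicate block the difference at 40 min was called (adjusted p = 0.0100), as were those of PCK1 (-0.54, adjusted p = 0.0177) and SIP4, against 15.9% of all probe sets called lower. At 10 min the blocked value was adjusted p = 0.0600. At 20 min the replicate numbers of the strains were not taken as pairs, and the blocked value is given with the alternative settings.

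MDH2 also declined in both strains, to 835 ± 235 at 60 min against 1094 ± 145 at 0 min in GAL-NMD2, and to 1009 ± 128 against 1467 ± 169 in nmd2D. The log2 changes at 60 min were -0.41 in GAL-NMD2 and -0.53 in nmd2D (SE 0.19 each), below 0 in 8 of 8 replicates. Neither was called without the replicate block (limma adjusted p = 0.20 and 0.585), and both were called with it (adjusted p = 0.00988 and 0.0111). In nmd2D the 60 min values did not overlap those at 0 min. The interaction of MDH2 at 60 min was 0.12 (SE 0.27, 95% interval -0.44 to 0.67).

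**Figure D2:**
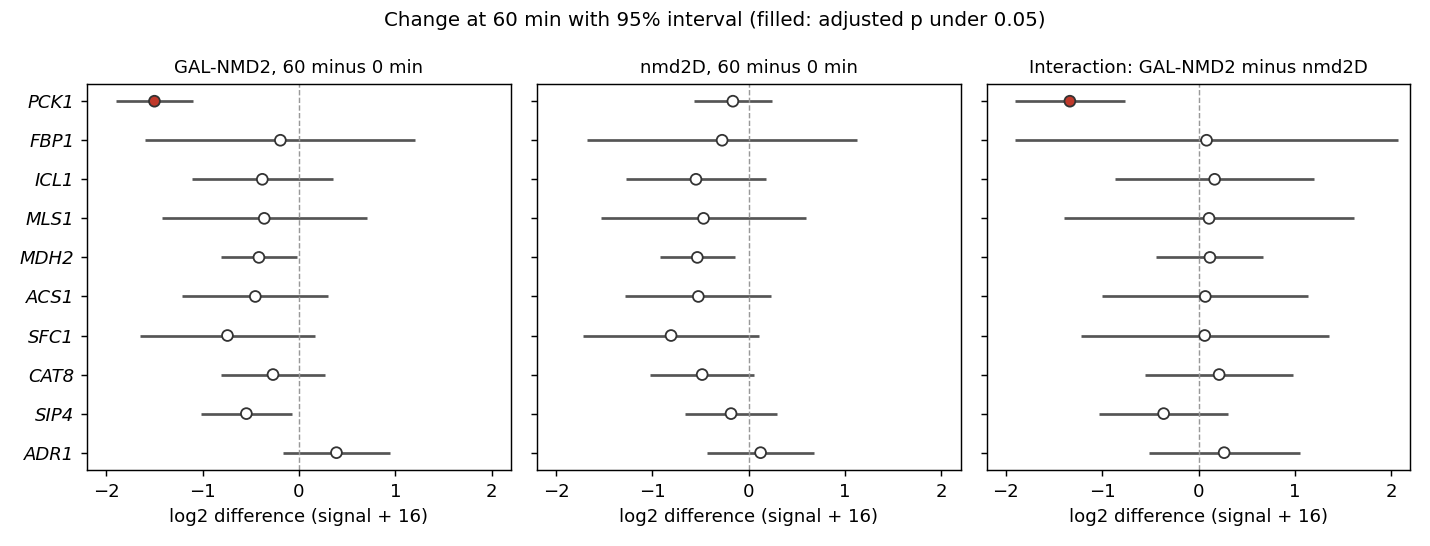
Log2 change of each gene (points) with its 95% interval (lines) from 0 to 60 min within GAL-NMD2 (left) and within nmd2D (middle), and the interaction (right); filled points had a limma adjusted p under 0.05. PCK1 is called in GAL-NMD2 (-1.50) and for the interaction (-1.33), while the other 9 intervals of the interaction include 0.

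The mean changes over the hour ran mostly downward in both strains, while single replicates were mixed. At 60 min 9 of 10 genes had a mean change below 0 in GAL-NMD2 and 9 of 10 in nmd2D, all but ADR1. PCK1, MDH2, ACS1 and SIP4 fell in every GAL-NMD2 replicate, whereas FBP1, ICL1, MLS1, SFC1 and CAT8 rose in replicate 4. ICL1, MDH2, SFC1 and CAT8 fell in every nmd2D replicate, and PCK1, FBP1, MLS1, ACS1 and SIP4 did not. FBP1 in nmd2D changed by -1.41 in replicate 1 and by 0.16, -0.01 and 0.15 in replicates 2 to 4. The median was -0.40 in GAL-NMD2 and -0.48 in nmd2D, against medians of -0.02 and 0.00 over all probe sets. In GAL-NMD2 PCK1 was the gene called, where 10.3% of all probe sets were called lower, and with the replicate block PCK1, MDH2, SFC1 and SIP4 were called, where 18.8% were. In nmd2D limma called 0 of 10 at 60 min (1 at an unadjusted p under 0.05), where 0.256% of all probe sets were called, and the block called MDH2, where 1.08% were called lower. At 10, 20 and 40 min limma also called 0 of 10 in nmd2D, with 0 at an unadjusted p under 0.05 at each time and 0.0943%, 0.148% and 0.229% of all probe sets called; the block called 0 as well.

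The mean of both strains' responses at 60 min was added after the values had been seen, to use all 8 replicates. These were not independent, because same-numbered arrays of the strains deviated together (r from 0.41 to 0.75 at 60 min). The fit without the block treats them as separate. PCK1 (-0.83, SE 0.14, limma adjusted p = 0.000138) and MDH2 (-0.47, SE 0.14, limma adjusted p = 0.0224) fell, where 6.79% of all probe sets were called lower. With the block ICL1, SFC1, CAT8 and SIP4 also fell, making 6 of 10, where 16.6% of all probe sets were called lower. The call of MDH2 was lost with median centring and without GAL-NMD2 replicate 3, nmd2D replicate 3 or nmd2D replicate 4. The mean for PCK1 combined a change called in GAL-NMD2 with one not called in nmd2D.

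**Figure D3:**
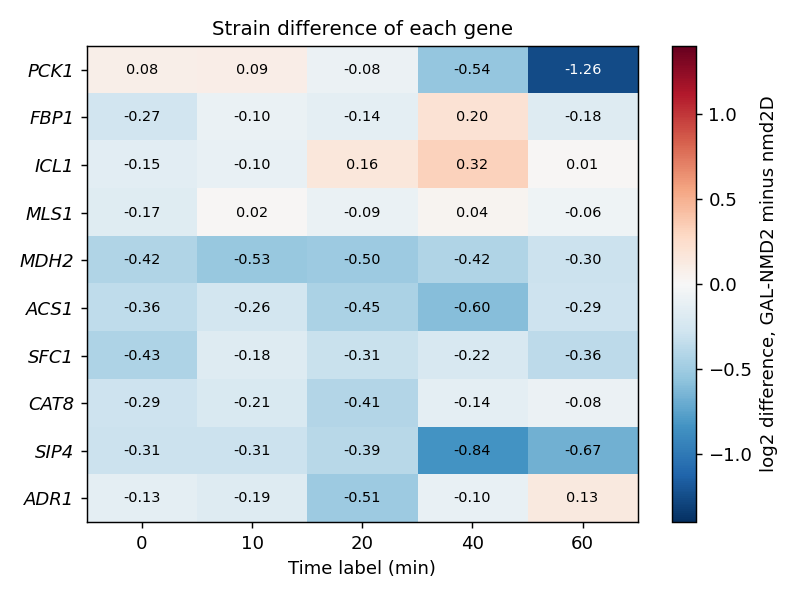
Log2 strain difference, GAL-NMD2 minus nmd2D, of each gene (rows) at each time label in min (columns), with the value printed in each cell and coloured blue where lower in GAL-NMD2. PCK1 reaches -1.26 at 60 min and SIP4 -0.84 at 40 min, and MDH2 lies between -0.53 and -0.30 throughout.

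Before galactose no gene of the set was called between the strains. At 0 min 9 of 10 differences were below 0 (median -0.28, against -0.04 over all probe sets), 1 gene, MDH2, had an unadjusted p under 0.05, and 0.0135% of all probe sets were called. At 10 min 0 genes were called, MDH2 alone had an unadjusted p under 0.05, and 0.0135% of all probe sets were called. At 20 min 0 genes were called (1 at an unadjusted p under 0.05), with 0.499% of all probe sets. For the interaction limma called 0 of 10 at 10, 20 and 40 min (0, 0 and 1 at an unadjusted p under 0.05), with 0%, 0.0135% and 1.51% of all probe sets called, and the replicate block called 0 at 10 and 40 min. The comparisons at different times share their 0 min arrays.

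FBP1, MLS1, SFC1 and ACS1 varied widely between replicates. Their residual SD within groups was 1.04, 0.79, 0.67 and 0.56 on the log2 scale, all at or above the 92.6th percentile of the probe sets tested, whose median was 0.29. PCK1 and MDH2 had 0.28 each. The standard errors of the first 4 genes were therefore large, 0.98 for the interaction of FBP1 at 60 min (95% interval -1.90 to 2.07), an interval that spans several-fold differences in either direction.

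Replicate 1 of both strains read highest for these genes at some of the times, for ACS1 in both strains only at 20 min. FBP1 read 202.2, 430.4, 508.2, 362 and 112.8 at 0, 10, 20, 40 and 60 min in replicate 1 of GAL-NMD2, and 235.9, 430.5, 531.9, 160.4 and 79 in replicate 1 of nmd2D. In the other 3 replicates it stayed between 31.6 and 81.2 in GAL-NMD2 and between 50.4 and 81.2 in nmd2D at every time. Replicate 1 was highest at 20 min in both strains and closer to the others by 60 min, and no other replicate had such a peak for FBP1.

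MLS1, the malate synthase gene, read 595.9 at 20 min in replicate 1 of GAL-NMD2, against 91.5 to 262.9 in the other 3, and 525.3 in replicate 1 of nmd2D, against 135.5 to 302.1. By 60 min replicate 1 lay within the range of the others in both strains. SFC1 peaked earlier, at 10 min, with 484.6 in replicate 1 of GAL-NMD2 against 119.8 to 132.1 in the others, and 496.2 in replicate 1 of nmd2D against 126.1 to 212.3. ACS1 was highest at 20 min in replicate 1, at 1003.5 in GAL-NMD2 (others 437.9 to 687) and 1812.3 in nmd2D (others 526.8 to 736.6). At 60 min replicate 1 read 283.9 in GAL-NMD2 (others 193.2 to 620.7) and was the lowest in nmd2D, at 218.1 (others 301.8 to 694.9).

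At 20 min replicate 1 was the highest of 4 in both strains for PCK1, FBP1, MLS1, ACS1, SFC1 and ADR1, which is 6 of 10 genes, against 16.3% of all probe sets. The count was also 6 of 10 at 0 and at 10 min, against 19.2% and 18.8%, and was 2 at 40 min and 3 at 60 min, against 17.3% and 17.9%. Replicate 1 was the lowest in both strains for ICL1 and SIP4 at 40 and 60 min, 2 of 10 genes, against 15.9% and 15.3%. At 0 min it was so for SIP4 alone, 1 of 10 against 13%, and at 10 and 20 min for 0 genes, against 14.6% and 11.2%. These shares are descriptions and were not tested. The labels do not say that replicate 1 was grown on another day or in another medium. Without replicate 1 of both strains, a setting added after the data were seen, the interaction of PCK1 at 60 min was still called and the strain differences at 40 and 60 min were called for PCK1 and SIP4.

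**Figure D4:**
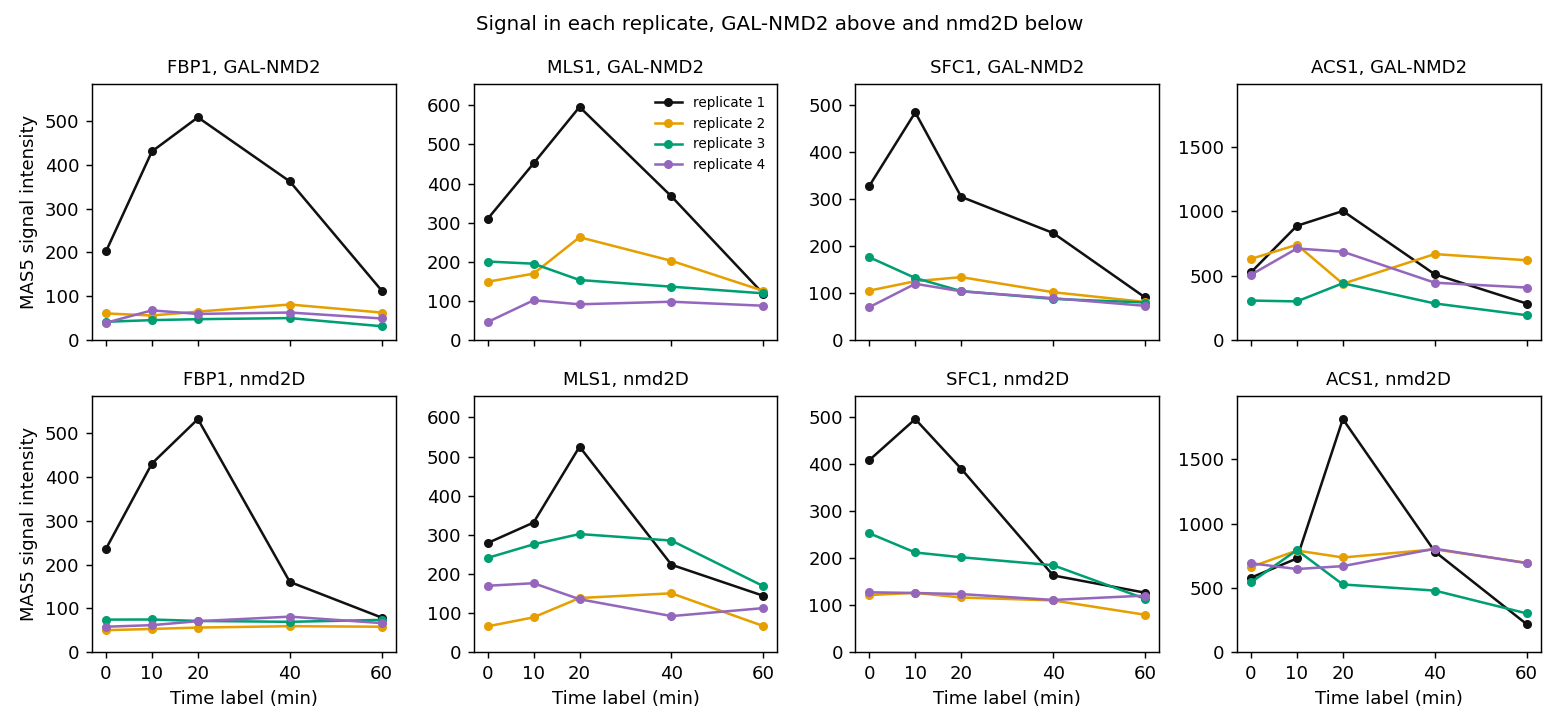
MAS5 signal (y axes) of FBP1, MLS1, SFC1 and ACS1 by time label in min (x axes) in each of the 4 replicates of GAL-NMD2 (top row) and nmd2D (bottom row), replicate 1 in black. FBP1 reaches 508.2 and 531.9 at 20 min in replicate 1 of GAL-NMD2 and nmd2D, and stays at or below 81.2 in the other replicates.

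ICL1, the isocitrate lyase gene, was the other glyoxylate gene with a wide spread, but replicate 1 was the lowest in both strains at 40 and 60 min. At 60 min it read 301.3, 783.1, 896.2 and 1081.2 in GAL-NMD2, against 367.3, 550, 1147.6 and 949.5 in nmd2D. Replicate 1 of GAL-NMD2 was instead the highest at 10 min, with 1107 against 708.3 to 1093.7 in the others. The groups overlapped fully, and the strain difference was 0.01 (SE 0.36, limma adjusted p = 0.994). The log2 differences between 60 and 0 min lay between -1.31 and 0.15 in GAL-NMD2 and between -0.91 and -0.25 in nmd2D.

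CAT8 encodes the main activator of the gluconeogenic genes and had a dim signal. It averaged 42.3 ± 12.2 at 60 min and 55.7 ± 25.2 at 0 min in GAL-NMD2, and 45.2 ± 12.2 at 60 min and 72.6 ± 34.7 at 0 min in nmd2D. The changes of -0.27 and -0.48 (SE 0.27 each) were not called in either strain. In replicate 1 it read 92.8 at 0 min in GAL-NMD2, against 36.8 to 48.5 in the others, and 123.2 in nmd2D, against 46 to 66.1.

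ADR1, which encodes the activator of genes for ethanol, glycerol and fatty acid use, ran against the rest in its mean change at 60 min. Its signal at 60 min was 341.4, 237.2, 192.8 and 311.7 in GAL-NMD2 and 314.5, 203.7, 203.4 and 254.1 in nmd2D. Compared with 0 min it was higher in 4 of 4 GAL-NMD2 replicates, by 0.31 to 0.52, and the nmd2D replicates lay between -0.09 and 0.41. The mean changes of 0.39 in GAL-NMD2 and 0.12 in nmd2D (SE 0.27 each) were not called; for GAL-NMD2 the blocked value was adjusted p = 0.0573. At 20 min ADR1 read 289.6, 175.9, 103.7 and 180.9 in GAL-NMD2 and 320.4, 225.5, 245.6 and 252.2 in nmd2D. The difference of -0.51 (SE 0.27) was not called (limma adjusted p = 0.592). The replicate numbers were not taken as pairs at this time, and the blocked value is given with the alternative settings.

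**Figure D5:**
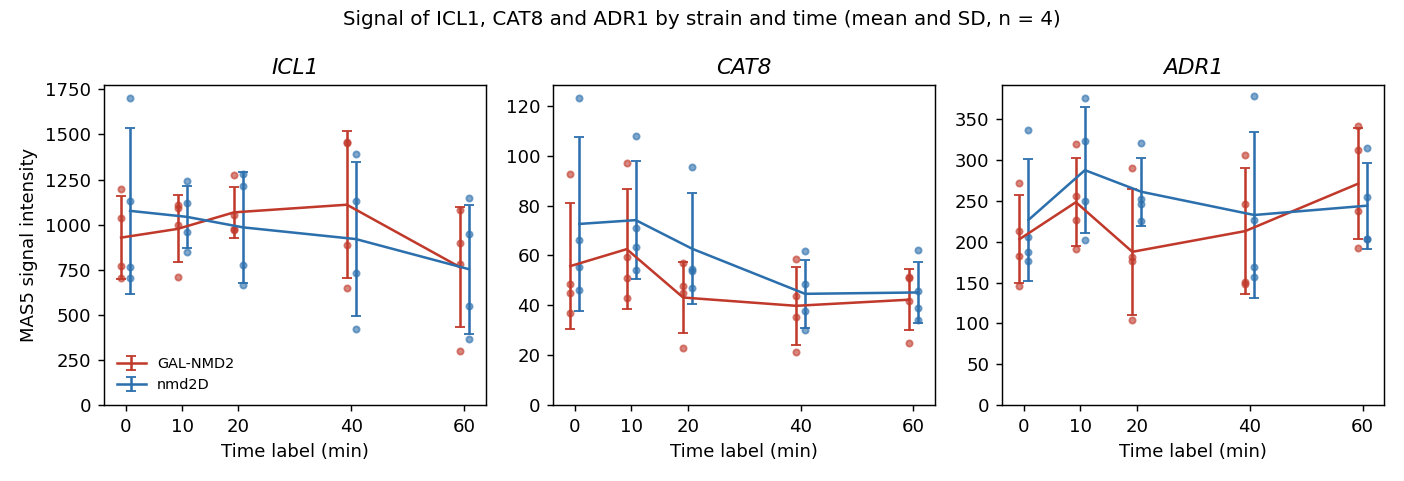
MAS5 signal of ICL1, CAT8 and ADR1 (y axis) by time label in min (x axis) in GAL-NMD2 (red) and nmd2D (blue), with points for single arrays, lines through the means and bars for the SD over 4 replicates. The bars of both strains overlap at every time for all 3 genes, and CAT8 averages 42.3 in GAL-NMD2 against 45.2 in nmd2D at the last time.

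Other genes of the pathway were examined in 8 lists. Of the reversible enzymes shared by glycolysis and gluconeogenesis 9 of 10 were measured by a probe set of their own, TDH2 being the exception. Limma called 0 of these 9 and 0 of the 4 one-way glycolytic enzymes for the strains, the interaction or either response at 60 min, and so did the replicate block. At an unadjusted p under 0.05 stood 1 of the 9 for the strains and 1 for the nmd2D response, and 0 of the 4. The median interactions at 60 min were 0.05 and 0.24, against -0.01 over all probe sets. Among 13 partner enzymes of the glyoxylate cycle and of anaplerosis 1 fell in the interaction at 60 min, where 3.89% of all probe sets did, and 0 rose (list median 0.12). It was DAL7, a malate synthase isoform, which averaged 60.9 ± 6.92 in GAL-NMD2 and 159 ± 43.9 in nmd2D (interaction -1.06, SE 0.26, limma adjusted p = 0.0139). MLS1, the other malate synthase gene, had an interaction of 0.11 (SE 0.74); cross-hybridization between such related genes was not examined.

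Of 9 genes of fatty acid oxidation and glycerol use 1 fell in the interaction at 60 min, again beside 3.89% of all probe sets, with a list median of -0.04. FAA2, a peroxisomal acyl-CoA synthetase gene, averaged 28.9 ± 8.37 in GAL-NMD2 and 81.2 ± 15.4 in nmd2D (interaction -0.997, SE 0.28, limma adjusted p = 0.0385). Within GAL-NMD2 2 of the 9 were called lower at 60 min, beside 10.3% of all probe sets (list median -0.13). Among them was FOX2, a peroxisomal oxidation enzyme gene (-0.74, SE 0.20, limma adjusted p = 0.00823). Of 16 genes of carboxylic acid uptake and acetyl unit entry limma called 0 in the interaction at 60 min (0 with the block, 0 at an unadjusted p under 0.05) and 1 fell within GAL-NMD2, where 10.3% of all probe sets did (list median -0.24). JEN1, the lactate permease gene, averaged 737 ± 248 at 60 min and 1209 ± 135 at 0 min in GAL-NMD2, and 996 ± 342 at 60 min and 1365 ± 99.9 at 0 min in nmd2D. Its change of -0.76 in GAL-NMD2 was called (SE 0.23, limma adjusted p = 0.0208), while the difference in response was not.

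In the Snf1 pathway and its repressors 1 of 17 genes fell in the interaction at 60 min, beside the same 3.89% (list median -0.01). MIG3, a repressor related to Mig1, was dim and averaged 12.9 ± 5.93 in GAL-NMD2 and 39.1 ± 7.32 in nmd2D (interaction -1.01, SE 0.22, limma adjusted p = 0.00415). Limma called 3 of the 17 lower within GAL-NMD2 at 60 min, beside 10.3% of all probe sets (list median -0.11). For the mean response of both strains it called 2 lower and 1 higher, beside 6.79% and 2.21%. SNF1, SNF4 and MIG1 had no call in any of the 18 comparisons, with or without the block. Among 11 other activators 4 were lower in GAL-NMD2 than in nmd2D at 60 min, where 11.9% of all probe sets were, with a list median of -0.31 against -0.05 over all probe sets. They were HAP5 (-1.12, a subunit of the activator of respiratory genes), RDS2 (-0.70, an activator of gluconeogenic genes), INO4 (-0.67) and PIP2 (-0.64, an activator of peroxisomal genes). None of these 4 had a called interaction without the block; with it INO4 did (-0.91, adjusted p = 0.0151).

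The GID ubiquitin ligase marks the Fbp1, Pck1, Icl1 and Mdh2 proteins for degradation when glucose returns. Of 9 genes for it and its partners 1 was lower in GAL-NMD2 at 60 min, beside 11.9% of all probe sets. It was GID8 (-0.98, SE 0.30, limma adjusted p = 0.0215). Within GAL-NMD2 VID28 fell (-0.66, SE 0.18, limma adjusted p = 0.00906), 1 of 9 beside 10.3% of all probe sets. With the replicate block 6 of 9 fell at 60 min, beside 18.8%. At 40 min limma called 3 of 9 lower within GAL-NMD2, beside 8.19% of all probe sets, and the block called 5 of 9, beside 16.1%. The list median at 60 min was -0.47 in GAL-NMD2 against -0.26 in nmd2D, and limma called 0 of 9 interactions (0 with the block, 0 at an unadjusted p under 0.05).

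Over the 10 group means the genes of the set did not share a single profile. FBP1 and MLS1, both high in replicate 1, were most alike (r = 0.95). PCK1 correlated with SFC1 at r = 0.83 and with FBP1 at r = 0.56, and ADR1 with PCK1 at r = -0.20. Outside the set the genes most like PCK1 were MCO6 (r = 0.97), FMO1 (0.97), IMT3 (0.96), RPN13 (0.96) and HSP31 (0.95). The group means of these genes varied less than those of PCK1. Their SD on the log2 scale ran from 0.17 for IMT3 to 0.38 for HSP31, against 0.49 for PCK1. Those most like the mean profile of the set were YIG1 (r = 0.97), CPR4 (0.97), SPI1 (0.95), AQY3 (0.95) and COQ1 (0.95). All these values come from 10 points on the same 40 arrays and are descriptions.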

How the data were processed

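RNA of 40 yeast samples was hybridized to Affymetrix arrays. MAS5 made the deposited intensities, per the submitters' processing notes, and no version or setting of it is recorded in the labels. They are linear, and the mean of the middle 96% was 250.2 on every array, which is the scaling the authors' values carry. The number of arrays limits the precision.

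Of 9335 probe sets 60 were controls, and of the others 6504 had 1 gene symbol, 328 several and 2443 none. The R64 gene table served for names only. Values became log2(intensity + 16) and probe sets under the 20th percentile of mean signal were dropped. limma 3.58.1 in R 4.3.3 then fitted 10 group means (eBayes with trend) for 17 planned comparisons. Where a gene had several probe sets, the brightest was used. Named were all members, up to 4 genes per list with the smallest adjusted p and any list gene called, and the 5 genes most correlated with PCK1 or with the mean profile. The members, lists and tests were chosen with earlier results of these data known.

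Alternatives were pseudocounts of 1 and 64, no filter, a filter at the 40th percentile, median centring, quantile normalization, the replicate block, only the arrays compared, and replicates left out. Replicate numbers are from the labels. Same-numbered arrays deviated together (r above 0.1) in 51 of 52 pairs, with a median r of 0.65. The strains at 20 min held the remaining pair (r = 0.067, replicate 2), so no pairing was assumed there. The fit was tested on simulated data.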

Additional observations from a re-analysis of the deposited data

Results flagged for a closer look

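The response of PCK1 to galactose differed between the strains by a test of the difference itself (interaction at 60 min, log2 -1.33, limma adjusted p = 0.00325).

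Single arrays far from the other 3 of their group were found in 9 of 100 gene and group combinations, where chance flags about 5%. These combinations were not independent, because same-numbered arrays deviated together, so the 5% is no test of an excess. FBP1 read 430.4 in replicate 1 of GAL-NMD2 at 10 min (others 45.6 to 67.8) and 430.5 in replicate 1 of nmd2D (others 53.1 to 74.7). At 20 min FBP1 read 508.2 in replicate 1 of GAL-NMD2 (others 47.7 to 65) and 531.9 in replicate 1 of nmd2D (others 56.3 to 71.4). SFC1 read 484.6 in replicate 1 of GAL-NMD2 at 10 min (others 119.8 to 132.1) and 227.9 at 40 min (others 87.7 to 101.9). SIP4 read 28.1 in replicate 1 of GAL-NMD2 at 60 min (others 56.4 to 60.9) and 147.8 in replicate 3 of nmd2D at 0 min (others 87 to 92.7). ACS1 read 479.4 in replicate 3 of nmd2D at 40 min (others 782.8 to 804.6).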

How the results depend on the processing

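The calls of PCK1 at 60 min (strains, interaction, GAL-NMD2 response) kept direction and side of the threshold in 18 alternatives. Counts of members called moved as follows, for reasons not tested. With the replicate block they were 2 for the strains at 20 min (MDH2 with adjusted p = 0.00789 and ADR1 with adjusted p = 0.0330, where the numbers are not treated as pairs, with 5.42% of all probe sets called lower), 3 at 40 min and 2 at 60 min. At 60 min they were 1 in nmd2D, 4 in GAL-NMD2 and 6 for the mean response, and at 40 min 3 in GAL-NMD2. The block changed no other count of members. For the strains at 40 min median centring, quantile normalization and fitting only the arrays compared gave 0; leaving out replicates gave 0 to 2. At 60 min leaving out replicates gave 1 to 2. For the GAL-NMD2 response at 40 min a pseudocount of 64 or no filter gave 1, median centring, quantile normalization and only the arrays compared gave 0, and leaving out replicates gave 0 to 2. For the mean response median centring gave 1 and leaving out replicates 1 to 2.

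Differences that changed sign under an alternative were not called. For the strains at 60 min, median centring gave 0.0777 for FBP1, 0.20 for MLS1 and 0.18 for CAT8, and quantile normalization gave 0.0954 for FBP1, 0.18 for MLS1, 0.17 for CAT8 and -0.0165 for ICL1. Leaving out replicates gave ranges of -0.44 to 0.0365 for FBP1, -0.28 to 0.40 for ICL1, -0.29 to 0.0964 for MLS1 and -0.17 to 0.0823 for CAT8. For the interaction at 60 min the ranges were -0.29 to 0.27 for FBP1, -0.0081 to 0.48 for ICL1, -0.26 to 0.42 for MLS1, -0.20 to 0.27 for ACS1 and -0.20 to 0.38 for SFC1, and for the nmd2D response -0.42 to 0.10 for FBP1. Without replicate 1 of both strains the strain difference was 0.0051 for MLS1 and 0.0418 for CAT8, the interaction -0.10 for FBP1 and -0.0698 for ACS1, and the nmd2D response 0.10 for FBP1.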

Other observations

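Replicate 1 of both strains also read highest for some genes outside the set, here chosen after their values were seen. ADH2, the glucose-repressed alcohol dehydrogenase gene and a target of Adr1, read 4247.3 at 20 min in replicate 1 of GAL-NMD2, against 250.5 to 415.1 in the other 3 replicates. In nmd2D it read 4756.6 in replicate 1, against 328.1 to 571.4. The same was seen before galactose, at 2783.6 in replicate 1 of GAL-NMD2 (others 189.7 to 446) and 2718.2 in replicate 1 of nmd2D (others 315.3 to 442.3), and ADH2 stayed high in replicate 1 at 60 min.

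Of 9 genes of fatty acid oxidation and glycerol use, replicate 1 was the highest in both strains at 20 min for CTA1, POX1, POT1, SPS19 and GUT1, and of 16 uptake and entry genes for ADY2, ADH2, ALD4, ALD6, ACH1 and CAT2. The margin was small for some of them, such as ACH1 in nmd2D with 1250.8 in replicate 1 against 942.8 to 1232.4 in the others. POX1, the first enzyme of peroxisomal oxidation, read 58.8 at 20 min in replicate 1 of GAL-NMD2 (others 7 to 20.4) and 102.1 in replicate 1 of nmd2D (others 9.3 to 13.5). IDP2, the cytosolic isocitrate dehydrogenase gene, read 1143.3 in replicate 1 of GAL-NMD2 (others 345.1 to 675.2) and 1258.9 in replicate 1 of nmd2D (others 450.2 to 820.3). IDP2 was 1 of 4 such genes among 13 partner enzymes of the glyoxylate cycle and anaplerosis. Among 9 reversible glycolytic enzymes, 4 one-way glycolytic enzymes and 17 Snf1 pathway genes the count was 1 each, and among 11 other activators and 9 GID genes it was 0. Over all probe sets the share was 16.3%. The carbon source and growth state of single replicates were not tested.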
